A study of Mus musculus with 4 samples.

Results

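Thin limb nuclei were taken from single-nucleus RNA sequencing of mouse kidney by a rule on barcodes. A barcode was selected when it had at most 15000 unique molecular identifiers (UMIs, 1 per captured transcript), no more than 10% of UMIs from genes of the mitochondrial genome and at least 1 UMI from 3 or more of 8 genes: Slc4a11, Epha7, Fst, Bst1, Slc14a2, Sorcs3, Corin and Cryab. It also had to have at most 4 UMIs in all from Slc5a12, Slc13a3, Slc7a13 and Slc22a6, which mark the proximal tubule, and at most 3 from the pair Slc12a1, of the thick ascending limb, and Flt1, of endothelium. The rule found 729 nuclei among 37959 barcodes within the UMI and mitochondrial limits, of 39654 barcodes in all.

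The kidneys came from C57BL/6 mice at postnatal week 22, and the only contrast in the labels is 2 untreated libraries against 2 libraries from mice given losartan, a drug that prevents angiotensin II from acting on its type 1 receptor. All 4 libraries share flash-frozen tissue, a nuclei isolation kit and droplet barcoding on the 10x Chromium platform. The labels leave out dose, route, length of treatment and sex, and none says that libraries 1 and 2 of a group came from separate animals. The p-values therefore measure the spread between these libraries, which may be technical.

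The thin limbs of the loop of Henle join the proximal tubule to the thick ascending limb and run deep in the medulla. Descending limbs of long loops let water out through the channel Aqp1, descending limbs of short loops carry the urea transporter encoded by Slc14a2, and ascending thin limbs let salt out but little water. Together they build the salt and urea gradient on which urine concentration depends. Their cells live in a hypertonic surrounding and make osmolytes, among them sorbitol through aldose reductase, the product of Akr1b3.

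Promoters of genes that set the groups of selected nuclei apart are shown first, with that of Kap, a gene of low p in the losartan comparison, so that the levels below can be read beside the sequence next to each start site. Each runs from 250 bases before to 50 bases after a RefSeq start site on GRCm38.p6, 5′ to 3′ on the gene's strand. They are Aqp1 at chr6:55336049-55336348 on the plus strand, Corin at chr5:72504491-72504790 on the minus strand, Prox1 at chr1:190170778-190171077 and, for a second start site, chr1:190169466-190169765, both on the minus strand, and Kap at chr6:133853618-133853917 on the minus strand. Capitals mark matches to any of 3 short motifs searched on both strands: GCCNNNGGC of TFAP2 factors, TGGAAA of NFAT5 and GTTAAT of HNF1.
Aqp1: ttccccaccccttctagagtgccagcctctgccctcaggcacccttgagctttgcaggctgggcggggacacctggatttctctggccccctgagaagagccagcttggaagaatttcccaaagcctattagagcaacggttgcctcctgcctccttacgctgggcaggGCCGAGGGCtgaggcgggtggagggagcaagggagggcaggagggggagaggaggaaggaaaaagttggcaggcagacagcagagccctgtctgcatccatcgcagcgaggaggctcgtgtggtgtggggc
Corin: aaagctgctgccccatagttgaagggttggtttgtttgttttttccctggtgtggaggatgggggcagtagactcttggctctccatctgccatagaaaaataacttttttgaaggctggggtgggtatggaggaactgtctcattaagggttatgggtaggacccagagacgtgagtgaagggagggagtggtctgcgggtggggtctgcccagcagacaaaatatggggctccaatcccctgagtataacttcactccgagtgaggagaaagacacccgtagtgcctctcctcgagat
Prox1 first start site: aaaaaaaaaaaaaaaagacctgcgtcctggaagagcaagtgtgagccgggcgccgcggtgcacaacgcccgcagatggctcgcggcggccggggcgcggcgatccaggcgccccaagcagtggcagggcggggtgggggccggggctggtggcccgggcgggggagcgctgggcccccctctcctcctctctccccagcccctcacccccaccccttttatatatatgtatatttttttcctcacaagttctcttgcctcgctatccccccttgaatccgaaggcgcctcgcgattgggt
Prox1 second start site: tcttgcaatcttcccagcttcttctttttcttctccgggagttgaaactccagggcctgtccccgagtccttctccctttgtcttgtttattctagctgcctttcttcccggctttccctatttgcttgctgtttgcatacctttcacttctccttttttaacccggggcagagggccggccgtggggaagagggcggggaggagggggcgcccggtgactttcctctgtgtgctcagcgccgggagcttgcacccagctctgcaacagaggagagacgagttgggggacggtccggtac
Kap: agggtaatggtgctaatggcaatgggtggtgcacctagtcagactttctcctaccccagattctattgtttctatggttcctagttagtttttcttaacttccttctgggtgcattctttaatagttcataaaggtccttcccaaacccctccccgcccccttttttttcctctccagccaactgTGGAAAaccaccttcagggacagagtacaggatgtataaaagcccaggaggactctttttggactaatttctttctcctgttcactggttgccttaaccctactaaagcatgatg
Aqp1 held 1 TFAP2 match, Kap held 1 NFAT5 match, and the windows of Corin and Prox1 held none, so no printed match overlapped another. Among 32851 promoters of this length, 16.6% held GCCNNNGGC, 21.4% TGGAAA and 7.10% GTTAAT. Of the leading genes of sub-clusters 1, 2, 3, 4 and 6, described further on, the promoters matched by symbol held GCCNNNGGC in 6 of 15, 4 of 11, 3 of 9, 2 of 11 and 2 of 9, and TGGAAA in 2, 4, 1, 0 and 0. A match is a description of these letters only.

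Untreated library 1 stood apart from the other 3 in the sub-clusters of its selected nuclei, not in their share of barcodes. It had 112 selected nuclei among 9135 barcodes within the limits, against 399 of 9540 in untreated library 2, 72 of 9433 in losartan library 1 and 146 of 9851 in losartan library 2. None of its 112 selected nuclei fell in sub-clusters 2 and 6, and its selected nuclei had the lowest levels of Cryab and Akr1b3. Untreated library 2 was the highest for both genes, in the selected nuclei and in thick ascending limb, proximal tubule and principal cell nuclei. Akr1b3 was lowest in untreated library 1 in those other classes too. The median depth of the selected nuclei was 3295, 3849, 3432.5 and 3448.5 UMIs in the same order, and 41 of the 729 were scored as doublets. Pairs of libraries shared 21 to 29 barcodes, and 1 selected barcode occurred in both untreated library 2 and losartan library 2. Proximal tubule RNA was found in the selected nuclei of every library. The summed level of its 8 markers was 1978 and 1251 CPM (each library's summed UMIs scaled to the same total) in untreated and 3527 and 3028 CPM in losartan libraries.

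The share of selected nuclei was 1.23% and 4.18% in the untreated and 0.763% and 1.48% in the losartan libraries. The 95% Clopper-Pearson intervals, which cover counting error only, were 1.01 to 1.47%, 3.79 to 4.60%, 0.598 to 0.960% and 1.25 to 1.74%. Untreated library 2 was highest, and the groups overlapped. Means were 2.70 ± 2.09% untreated and 1.12 ± 0.508% with losartan (SD, n = 2), and the difference was within the spread between libraries (exact two-sided permutation test, p = 0.667, where 2 against 2 libraries cannot go below 0.33). Without untreated library 1 the difference was -3.06 percentage points, and without untreated library 2 it was -0.103. After every barcode was thinned to 2000 UMIs, leaving out 646 barcodes within the limits of untreated library 1 and 2 to 4 of each other library, the shares were 0.990%, 2.45%, 0.583% and 0.934% and did not overlap (exact permutation p = 0.33, the smallest possible).

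The 8 genes of the rule are given as a description, since they chose the nuclei. Cryab, a small heat shock chaperone, was found in 71.6% of selected nuclei, Epha7, an ephrin receptor, in 69.4%, and Sorcs3, a sortilin-family receptor, in 63.9%. Bst1, an ectoenzyme that consumes NAD, was found in 42.4%, Slc4a11, a membrane transporter of the SLC4 family, in 39.9%, and Slc14a2 in 28.1%. Fst, the activin-binding protein follistatin, was found in 18.2%, and Corin, the protease that activates atrial natriuretic peptide, in 13.7%. In proximal tubule nuclei, which should lack these genes and had medians of 4669 to 6205 UMIs, the shares were 0.678% for Fst, 1.13% for Corin, 1.15% for Sorcs3 and 11.9% for Cryab. Cryab in proximal tubule nuclei ranged from 4.23 to 38.6% over the libraries, and its level there was highest in untreated library 2, at 94.5 CPM.

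Fst and Corin were never found together, with 0 of 729 nuclei carrying UMIs of both, which allows a share of up to 0.412%. Slc14a2 and Corin went together, Corin being found in 40% of nuclei with Slc14a2 and in 3.44% of those without. Sorcs3 was found in 12.0% of nuclei with Fst and in 75.5% of those without. Epha7 and Sorcs3 shared 363 nuclei. A nucleus that lacked a gene had to carry 3 of the remaining genes to be selected, and a nucleus with it needed fewer. The rule itself therefore raises the share of a gene among nuclei without another, and its part in these shares was not tested. Most selected nuclei sat at the edge of the rule: 456 had 3 of the 8 genes, 207 had 4, 60 had 5 and 6 had 6. Just outside it, nuclei with 2 of the 8 genes that met every other limit numbered 92 and 570 in untreated and 92 and 176 in losartan libraries. Another 124 barcodes with 3 or more of the genes were barred by Slc12a1 and Flt1, and 80 by the proximal genes.

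**Figure D1:**
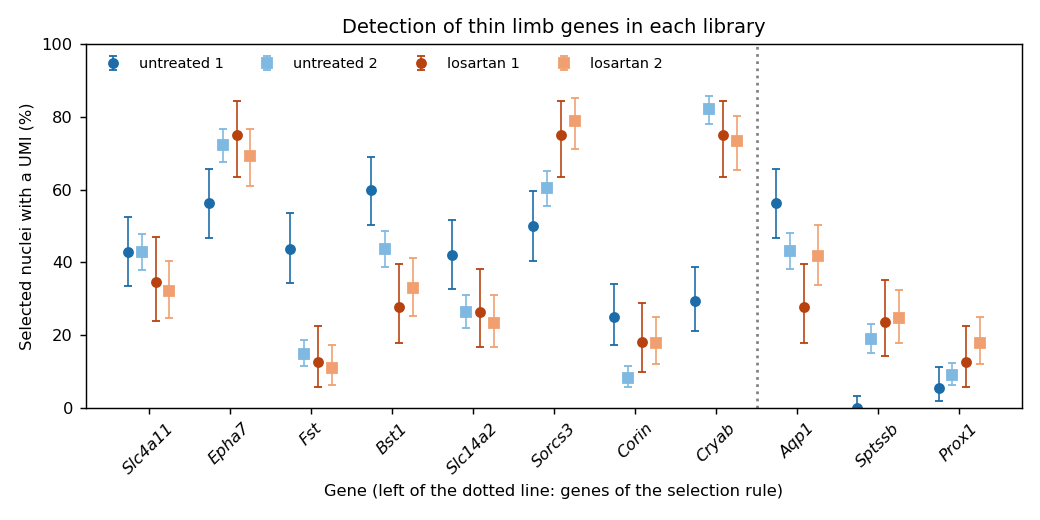
Share of selected nuclei with at least 1 UMI of each gene (vertical axis, %), by library, with 95% Clopper-Pearson intervals as bars; the 8 genes left of the dotted line belong to the selection rule. Untreated library 1 has Cryab in 29.5% of nuclei against 73.3 to 82.2% in the other libraries, Fst in 43.8% against 10.96 to 14.8%, and Sptssb in 0.

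By library the rule genes differed most in untreated library 1. Cryab was at 103 and 969 CPM in untreated and 499 and 501 CPM in losartan libraries. Fst was at 973 and 267 CPM in untreated and 201 and 216 CPM in losartan libraries. Slc14a2 was at 1815 and 322 CPM against 420 and 442 CPM, and Corin at 899 and 86.3 CPM against 427 and 395 CPM. For Cryab and Corin the losartan values lay between the untreated values. In thick ascending limb nuclei Cryab was at 16.9 and 121 CPM untreated and 18.7 and 46.1 CPM with losartan. In proximal tubule nuclei it was at 9.80 and 94.5 CPM against 9.48 and 27.9 CPM, so untreated library 1 was close to losartan library 1 and untreated library 2 was high.

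Clustering split the selected nuclei into 8 sub-clusters of 160, 108, 94, 92, 90, 77, 71 and 37 nuclei. The 1500 most variable genes of these nuclei formed the sub-clusters, and the rule's genes were not barred, so the leading genes are a description. Named thin limb markers stood among the 10 leading genes of sub-clusters 1, 3 and 4. Those of sub-clusters 3 and 4 were Corin, Slc14a2 and Fst, which belong to the rule and so cannot check the label. Aqp1, of sub-cluster 1, lies outside the rule. Sub-cluster 6 is described by its other leading genes. Sub-cluster 2 had no fixed marker of any type there, although Cryab and Sptssb were in its first 15. Sub-cluster 5 led with principal cell genes, and sub-clusters 7 and 8 led with none of the fixed markers. By the 10 leading genes, the label "thin limb" met another type's markers in the 90 nuclei of sub-cluster 5 and no fixed marker in the 108, 71 and 37 nuclei of sub-clusters 2, 7 and 8. Sub-clusters 1 to 4 and 6 were also examined without the 198 nuclei of 5, 7 and 8; sub-cluster 2 was kept among them for Cryab, a rule gene, and Sptssb. Sub-clusters keep their numbers here.

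Sub-cluster 1 led with Aqp1, at 1697 CPM against 148 CPM in the other selected nuclei. Osr2, a transcription factor, and Cacna1d, a calcium channel subunit, also led it. Epha7 and Sorcs3 were highest there, at 1201 and 1608 CPM. By library Aqp1 in sub-cluster 1 was 740 and 2358 CPM in untreated and 457 and 785 CPM in losartan libraries, so untreated library 2 was high and untreated library 1 lay between the losartan libraries.

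Sub-cluster 4 led with Fst, at 2648 CPM against 67.8 CPM, with the cadherin Cdh13, the sodium-proton exchanger Slc9a3 and the chemokine scavenger Ackr3. It too carried Aqp1, at 595 CPM, and had Slc4a11 at 492 CPM, its highest level. Sorcs3 was at 12.2 CPM and Corin had no UMI. Fst was found in 100% of its nuclei in both untreated libraries and in 90.0% and 90.9% in the losartan libraries.

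Sub-cluster 3 led with Corin (2670 against 24.6 CPM), the serotonin receptor Htr4, Slc14a2 (4537 against 120 CPM) and Tshr, the receptor of thyrotropin. The transcription factor Uncx and the scaffold Shank2 belonged to it as well. Within it Corin was at 2849 and 2054 CPM in untreated and 2770 and 2887 CPM in losartan libraries, and the groups overlapped. Slc14a2 was at 5673 and 5310 CPM in untreated and 2570 and 2887 CPM in losartan libraries, from 38, 21, 12 and 23 nuclei, and the groups did not overlap. Both genes belong to the rule, so these levels carry no test.

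Sub-cluster 6 led with the transcription factor Prox1, at 531 CPM against 8.37 CPM. Cldn10, a claudin of cation-permeable junctions, was at 647 CPM against 49.8 CPM, and Sgcz, a sarcoglycan, at 3645 CPM against 118 CPM. Tfap2b, a transcription factor of the distal nephron, was at 565 CPM. Of the 77 nuclei of sub-cluster 6, 38 had at least 3 of 6 thick ascending limb markers, a list that holds Cldn10. That share of 49.4% was the highest, against 16.7 to 32.4% in the other sub-clusters. Prox1 was found in 27.8% of thick ascending limb nuclei and in 10.6% of all selected nuclei. Akr1b3 was at 2308 CPM in sub-cluster 6 and at 2294 CPM in sub-cluster 2, against 88.1 CPM in sub-cluster 3. Sub-cluster 2 led with the adhesion genes Clstn2 and Kirrel3 and the ephrin receptor Ephb2, and its Cryab level of 1979 CPM was the highest. Sptssb, a subunit of the enzyme that starts sphingolipid synthesis, was at 278 CPM in sub-cluster 2 and 468 CPM in sub-cluster 6, and at most 67.5 CPM in the others.

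Sub-cluster 5 led with the water channels Aqp4 and Aqp2, the latter at 1448 CPM, and with Elf5 and Gata3, transcription factors of the collecting duct. Of its 90 nuclei, 49 had at least 3 of 8 principal cell markers, and its depth was the highest of the 8 in losartan library 1, at a median of 6815.5 UMIs. Sub-cluster 7 led with Kcnip4, a potassium channel partner, at 1305 CPM, though in 23.9% of its nuclei, and with the matrix protein Tnc and the potassium channel Kcnma1. Of its 71 nuclei, 53 had at least 3 of 7 parietal epithelium markers, a list that holds Pax8, which all 8 sub-clusters expressed. That share of 74.6% was 70.7% in sub-cluster 4, 56.8% in sub-cluster 8 and 46.9% in sub-cluster 1, so by this count sub-cluster 4 was close to sub-cluster 7. Single genes of the list separated them. Cldn1 was found in 31.0% of nuclei of sub-cluster 7, 0 of 92 in sub-cluster 4 and at most 2.70% elsewhere. Cp was at 1559 CPM in sub-cluster 7 and 702 CPM in sub-cluster 4, but Pax8 went the other way, at 912 and 1609 CPM. Of the 71 nuclei of sub-cluster 7, 12 had at least 3 of 5 injured proximal tubule markers. Sub-cluster 8 led with Csmd1, the matrix genes Lama2, Mgp and Dcn and the complement gene C7. Fibroblast markers summed to 237 to 1467 CPM in it, and 8 of its 37 nuclei had at least 3 of 5. Doublet scores marked 15 of its nuclei and 12 of those of sub-cluster 5.

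**Figure D2:**
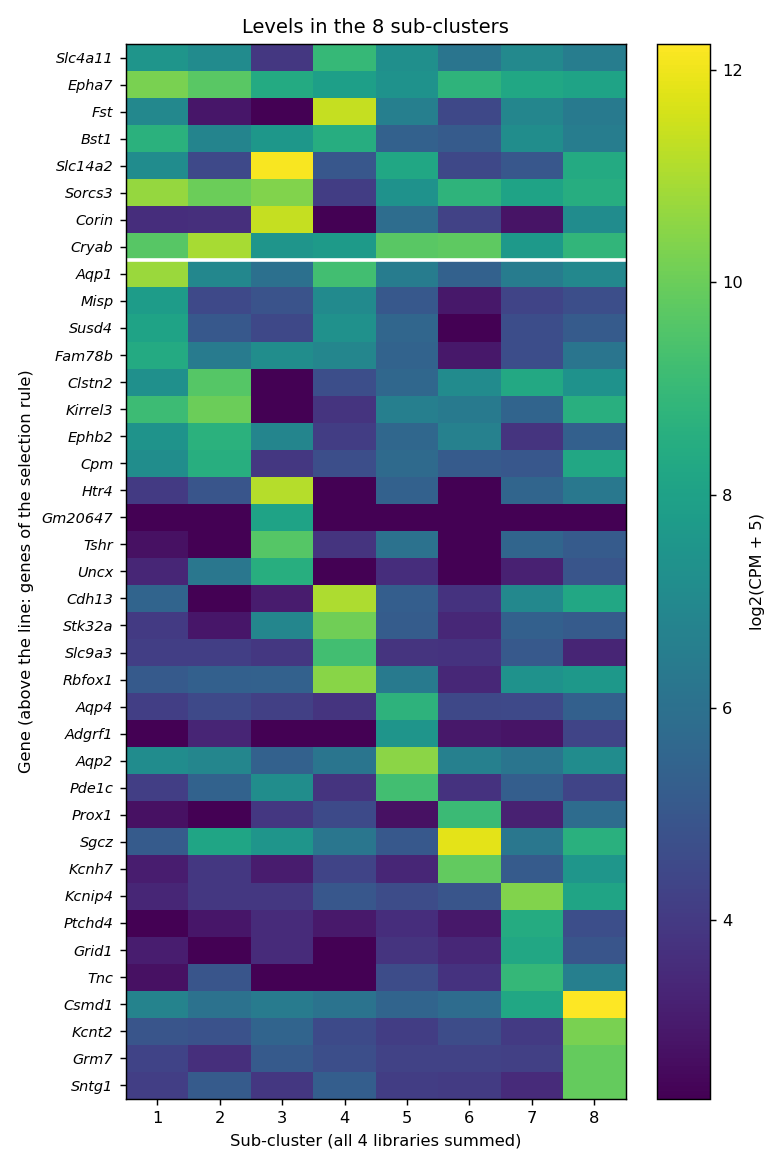
Levels of the 8 rule genes (above the white line) and 3 or 4 leading genes of each sub-cluster, as log2 of CPM plus 5, in the 8 sub-clusters with all libraries summed. Fst and Aqp1 are both bright in sub-cluster 4, Slc14a2 and Corin in sub-cluster 3, and Prox1 in sub-cluster 6.

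The mix of sub-clusters differed between libraries. Sub-cluster 3 held 33.9% and 5.26% of selected nuclei in untreated and 16.7% and 15.8% in losartan libraries. Sub-cluster 4 held 37.5% and 7.27% against 13.9% and 7.53%. Sub-cluster 6 held 0 and 10.3% against 9.72% and 19.9%, and sub-cluster 2 held 0 and 17.0% against 20.8% and 17.1%. A count of 0 of 112 nuclei allows a share of up to 2.68%. Sub-cluster 7 held 8.93% and 14.04% against 1.39% and 2.74%. Sub-clusters 2 and 7 did not overlap between the groups, and the other 6 did. For sub-cluster 2 the margin was narrow, at 17.0% in untreated library 2 and 17.1% in losartan library 2. No share was tested between the groups, because genes that differ between libraries helped to form the sub-clusters.

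**Figure D3:**
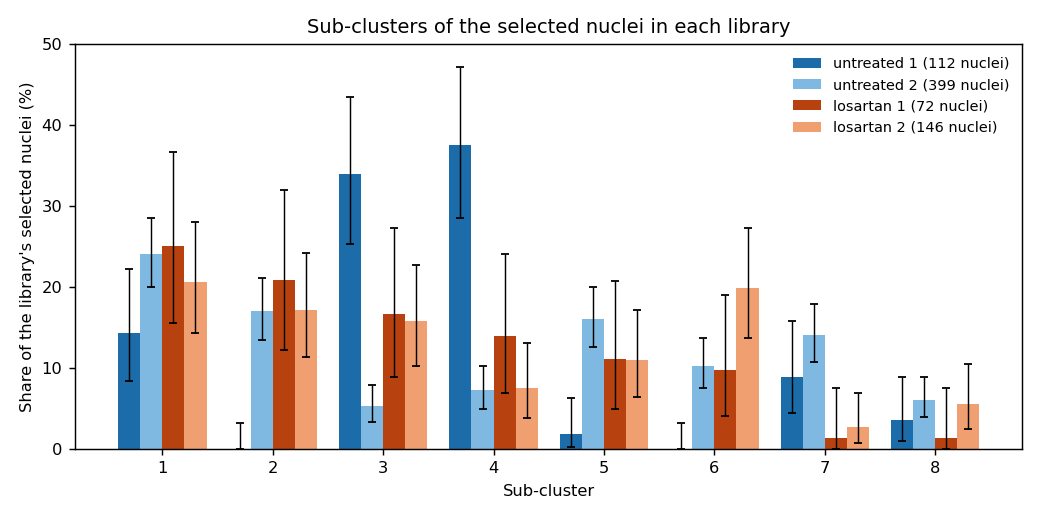
Share of each library's selected nuclei (vertical axis, %) in sub-clusters 1 to 8, with 95% Clopper-Pearson intervals. Untreated library 1 has no nucleus in sub-clusters 2 and 6 and 33.9% and 37.5% in sub-clusters 3 and 4.

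Outside the rule, the genes highest in selected nuclei over all other barcodes within the limits, ranked by the lowest of 4 library ratios among 4103 genes, began with Htr4. It was at 713 and 92.7 CPM in untreated and 398 and 288 CPM in losartan libraries, against 2.77 to 6.32 CPM in the other barcodes. Adgrv1, a very large adhesion receptor, followed at 214 and 129 CPM and 190 and 138 CPM, against 9.54 to 12.7 CPM. Proser2, Cfap52, Rasl11b, Cdh6, Pgm5, Platr22, Mkx, Plpp4, Rtn1, Apela, Ankrd1, Ppl and Gprc5a completed the first 15. Cdh6, a cadherin of developing nephron epithelium, averaged 322 ± 103 CPM (SD over 4 libraries) against 35.4 CPM, and Apela, a ligand of the apelin receptor, 389 ± 84.0 against 35.4 CPM. Apela was at 311 CPM in principal cell nuclei and 8.94 CPM in proximal tubule nuclei. Htr4 came 90.4% from sub-cluster 3, whereas Proser2 was found in all 8. These ratios follow from how the nuclei were chosen and carry no test.

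The losartan comparison asked which genes differed in the selected nuclei between the treated and untreated libraries. Counts were summed over the selected nuclei of each library and 7813 genes were tested. No gene passed an adjusted p of 0.05 in the quasi-likelihood test of edgeR, 0% of those tested. At an unadjusted p under 0.05 there were 327 genes, 4.19%, of which 143 (1.83%) were higher and 184 (2.36%) lower with losartan. On simulated counts with 200 genes changed by 1 on the log2 scale, this test called 0 of them. With changes of 2 it called 75.5%, and 151 of its 173 calls were changed genes. The count of 0 therefore cannot exclude changes of about 1 on that scale. DESeq2 called 6 genes (0.0768%): Megf11, Kap, Kcnip4, Spp1, Gm43291 and Sorcs1. limma voom called 0, with 359 genes at an unadjusted p under 0.05. Without untreated library 1 edgeR called 26 genes and without untreated library 2 it called 93, in fits where the lone untreated library is assumed to vary like the losartan pair.

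Values of the genes with the lowest p are given next as CPM scaled by edgeR's trimmed-mean (TMM) factors, and none is a call. Megf11, a membrane protein with EGF-like domains on chromosome 9 at 64385626 to 64709205 of GRCm38, was at 5.15 and 20.4 CPM untreated and 271 and 236 CPM with losartan. Both losartan libraries were above both untreated libraries, as for 32.5% of all genes tested in either direction. The log2 difference was 3.97 (SE 0.43, edgeR adjusted p = 0.0973). Of its UMIs, 82.9% came from sub-cluster 6, which untreated library 1 lacked. Within sub-cluster 6 Megf11 was at 151 CPM in untreated library 2 and 1452 and 1019 CPM in the losartan libraries, from 41, 7 and 29 nuclei. In the summed counts, fewer nuclei of a sub-cluster and less RNA per nucleus cannot be told apart.

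Kap, the kidney androgen-regulated protein of the proximal tubule, lies on chromosome 6 at 133849851 to 133853762. It was at 777 and 584 CPM untreated and 2385 and 2075 CPM with losartan, a log2 difference of 1.72 (SE 0.29, edgeR adjusted p = 0.457). The groups did not overlap. The same order held inside single sub-clusters. In sub-cluster 3 Kap was at 769 and 685 CPM untreated and 2246 and 2694 CPM with losartan, and in sub-cluster 4 at 698 and 693 against 2385 and 2230 CPM. Kap UMIs were found in 100% of selected nuclei of both losartan libraries and in 87.5% and 86.2% of the untreated. In principal cell nuclei the share was 85.7 to 100% over the libraries, so the share in selected nuclei does not show expression there. In sub-clusters 3 and 4 alone, Kap passed the threshold (log2 1.75, edgeR adjusted p = 6.96e-05), among 6 genes of 3235 tested, or 0.185%. The fit to these sub-clusters was not planned in advance.

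The other genes higher by lowest p were Trp63, Pde1c, Pqlc1, Cyp2e1, Abca13, St6galnac3, Gm960 and Dnase1, at log2 differences of 1.29 to 2.27. Trp63, encoding the epithelial factor p63, was at 33.5 and 28.3 CPM untreated and 101 and 93.2 CPM with losartan, with its highest level in sub-cluster 2. Cyp2e1, a drug-metabolising cytochrome of the proximal tubule, was at 28.3 and 17.5 CPM against 154 and 62.1 CPM. Pde1c, a phosphodiesterase, drew 83.6% of its UMIs from sub-clusters 5, 7 and 8, and without them its log2 difference of 1.46 became -0.16.

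Among genes lower with losartan, Kcnip4, on chromosome 5 at 48389502 to 49524907, was at 219 and 325 CPM untreated and 4.04 and 21.9 CPM with losartan, a log2 difference of -4.13 (SE 0.49, edgeR adjusted p = 0.102). The groups were far apart, and 86.3% of its UMIs came from sub-cluster 7, which held 66 nuclei in the untreated and 5 in the losartan libraries. In sub-clusters 1 to 4 and 6 it had 7 and 15 UMIs in untreated and 1 and 5 in losartan libraries. Sorcs1, a relative of Sorcs3, was at 43.8 and 71.9 CPM untreated and had 0 UMIs in the losartan libraries, which allows up to 10.8 and 5.18 CPM before scaling. Its UMIs came 98.6% from sub-clusters 5, 7 and 8. Nkain2 and Lhfp likewise drew 87.4% and 77.6% from those sub-clusters.

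Spp1, on chromosome 5 at 104435118 to 104441050, encodes the secreted phosphoprotein osteopontin. It was at 991 and 1240 CPM untreated and 303 and 261 CPM with losartan, a log2 difference of -1.99 (SE 0.28, edgeR adjusted p = 0.199). Untreated and losartan libraries did not overlap. In sub-clusters 1 to 4 and 6 alone the difference was -1.65. In sub-clusters 3 and 4 it was -1.35, past the threshold (edgeR adjusted p = 0.0254). Neither fit was planned in advance. Sub-clusters 3 and 4 differed in Spp1, at 447 and 1820 CPM. Sub-cluster 3 held 38 and 21 nuclei in untreated and 12 and 23 in losartan libraries, and sub-cluster 4 held 42 and 29 against 10 and 11. The part of this mix in the Spp1 difference was not tested. Gm43291, on chromosome 6 at 70719074 to 70740554, was at 278 and 494 CPM against 40.4 and 73.1 CPM, and it too passed in sub-clusters 3 and 4 (log2 -4.16, edgeR adjusted p = 0.023). There 412 of its UMIs came from 29 nuclei of untreated library 2 in sub-cluster 4, at 3857 CPM against 219 CPM in untreated library 1. Dcdc2a, a doublecortin-domain gene, was at 358 and 257 CPM against 133 and 106 CPM, and Gria3, a glutamate receptor subunit whose highest level was in sub-cluster 4, at 332 and 200 CPM against 80.9 and 80.4 CPM.

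**Figure D4:**
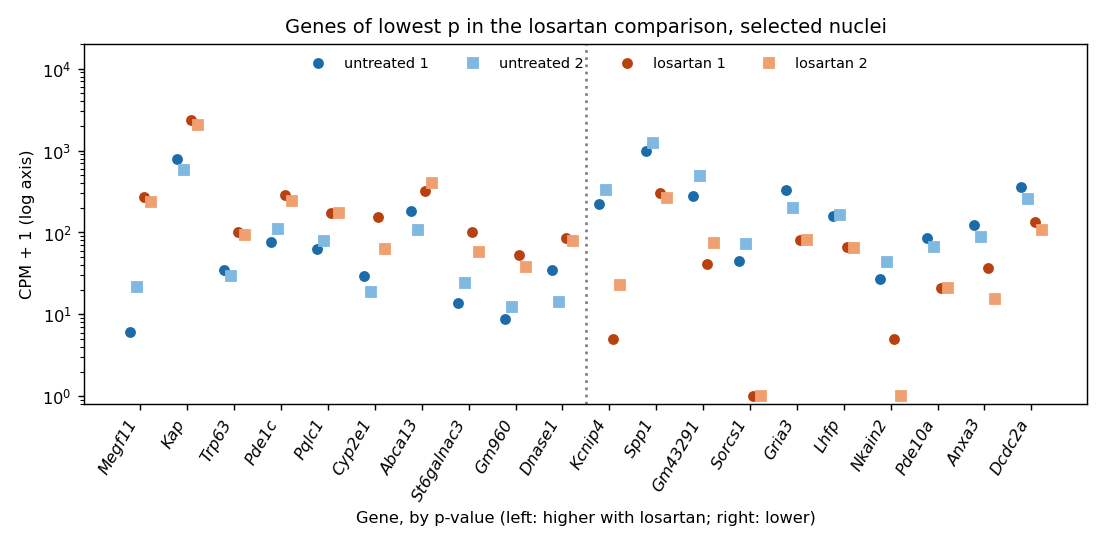
Level of the 10 genes higher and 10 genes lower by smallest p in the losartan comparison of selected nuclei, as TMM-scaled CPM plus 1 on a log axis, 1 point per library. Kap stands at 584 to 777 CPM in untreated and 2075 to 2385 CPM in losartan libraries; no gene passed an adjusted p of 0.05 in edgeR.

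Gene lists are described by counts beside those of all genes tested, of which 3805 were higher and 4008 lower, with a median log2 difference of -0.01. No list had a gene past the adjusted threshold, 0% as over all genes tested. In the tubule injury list 15 of 23 genes were tested, 13 were below 0 and the median was -0.74. At an unadjusted p under 0.05, 5 were lower and 0 higher: Spp1, Dcdc2a, Cp, Cd44 and Clu. Cp, ceruloplasmin, was at 695 and 706 CPM against 332 and 407 CPM. Cd44, Cp, Spp1, Clu and Dcdc2a drew 80.3%, 50.5%, 48.4%, 46.9% and 45.9% of their UMIs from sub-clusters 5, 7 and 8. Over all genes these sub-clusters held 1196952 of the 3100898 UMIs of selected nuclei, so only Cd44 was far above that share. Injured proximal tubule markers summed to 389 and 331 CPM in the selected nuclei of the untreated and 118 and 116 CPM in those of the losartan libraries. Dcdc2a stands in both lists. Their part in these differences was not tested.

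In the proximal tubule list all 16 genes were tested, 15 were above 0, the median was 0.57, and Kap, Acsm2, Cyp2e1 and Dnase1 were higher at an unadjusted p under 0.05. These genes are made in the proximal tubule, whose nuclei were barred by the rule. Slc34a1, its phosphate transporter, was at 438 and 261 CPM untreated and 542 and 354 CPM with losartan, and the groups overlapped. Egf, made in the thick ascending limb, was at 170 and 76.4 CPM against 243 and 279 CPM (log2 1.16). In thick ascending limb nuclei it was at 3545 and 3335 CPM against 7935 and 6677 CPM, before TMM scaling. What free RNA from these segments added to the values was not tested.

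Of 12 osmotic stress genes 11 were tested and 0 had an unadjusted p under 0.05. Nfat5, the factor that switches these genes on, was at 1436 and 1353 CPM untreated and 2422 and 1549 CPM with losartan (edgeR unadjusted p = 0.141). Akr1b3 ranged within the untreated pair from 56.6 to 1459 CPM, and both losartan libraries, at 966 and 977 CPM, lay between. Before scaling it was at 11.3 and 101 CPM untreated and 26.5 and 34.3 CPM with losartan in proximal tubule nuclei, and at 30.98 and 377 against 142 and 283 CPM in principal cell nuclei, so untreated library 1 was lowest and untreated library 2 highest in both. Of 26 junction and salt transport genes 20 were tested and 0 had an unadjusted p under 0.05. Atp1b1, a subunit of the sodium pump, was at 919 and 882 CPM against 918 and 922 CPM. Aqp1 was at 335 and 552 CPM against 182 and 267 CPM (log2 -0.98, SE 0.33), at an unadjusted edgeR p of 0.0184.

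Among renin-angiotensin genes 7 of 14 were tested and 0 had an unadjusted p under 0.05. Agtr1a is named as the receptor that losartan blocks, not by p or level. It was at 74.6 and 39.6 CPM untreated and 20.2 and 38.4 CPM with losartan (edgeR unadjusted p = 0.149). Both losartan values were below both untreated ones, at the nearest 38.4 against 39.6 CPM. Groups did not overlap for 32.5% of all genes tested, in either direction. Agtr1a was at 75.2 CPM on average in proximal tubule nuclei. Agtr1b and Agtr2 had no UMI in the selected nuclei. Nr3c2, the mineralocorticoid receptor, was at 499 and 302 CPM against 522 and 427 CPM. The Nr3c2 levels overlapped between the groups.

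Of 14 matrix and TGF-beta genes tested, 3 were lower and 0 higher at an unadjusted p under 0.05: Cyr61, Col4a1 and Col4a2. All were highest in sub-cluster 7, which held 66 nuclei in the untreated and 5 in the losartan libraries. They drew 68.4%, 61.5% and 54.9% of their UMIs from sub-clusters 5, 7 and 8. Col4a3 and Col4a4, basement membrane collagens, were at 1629 and 2975 CPM against 2280 and 2499 CPM, and at 1179 and 1552 CPM against 1589 and 1470 CPM. Of 17 activin and BMP genes tested, 1 was lower at that p: Fstl1, a follistatin relative, at 172 and 85.5 CPM against 40.4 and 51.1 CPM. Of 20 nephron transcription factors, Tfap2b, Esrrb and Prox1 were higher and Bnc2 lower at that p. Tfap2b and Esrrb drew 75.7% and 63.7% of their UMIs from sub-cluster 6, which untreated library 1 lacked. Prox1 was at 15.4 and 60.6 CPM against 146 and 111 CPM, and 89.05% of its UMIs came from sub-cluster 6. Within sub-cluster 6 Prox1 was at 491 CPM in untreated library 2 and 1064 and 458 CPM in the losartan libraries before scaling, so untreated library 2 lay between them. Of 9 interferon and MHC genes tested, 8 were below 0, and B2m and H2-K1 were lower at an unadjusted p under 0.05. Of 10 ephrin and adhesion genes tested, Ephb2 and Efna5 were higher and Sorcs1 lower at that p.

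A second question was whether the losartan difference in the selected nuclei was unlike that in 5349 thick ascending limb nuclei of the same libraries, chosen by at least 4 Slc12a1 UMIs. Library was a block in this fit. Of 13997 genes, 5 passed in edgeR (0.0357%), 3 (0.0214%) with a larger and 2 (0.0143%) with a smaller losartan over untreated ratio in the selected nuclei. With limma voom 0 passed, with 741 at an unadjusted p under 0.05, and with a robust edgeR fit 10 (0.0714%) did. On simulated counts with 200 genes changed by 2 on the log2 scale, the main edgeR fit made 88 calls. Of these, 76 were changed genes, so false calls were more frequent than the adjusted p of 0.05 states. Levels from here on are CPM before TMM scaling.

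Megf11 was at 5.15 and 19.4 CPM untreated and 240 and 223 CPM with losartan in the selected nuclei, and at 2.79, 6.09, 5.82 and 6.37 CPM in thick ascending limb nuclei. The difference between the log2 ratios was 3.74 (edgeR adjusted p = 0.00377, voom 0.0688). Kcnip4 was at 219, 310, 3.59 and 20.7 CPM in the selected nuclei and 32.9, 48.9, 18.4 and 50.3 CPM in the others, a difference of -4.10 (edgeR adjusted p = 0.000276, voom 0.062). With sub-clusters 1 to 4 and 6 alone Kcnip4 no longer passed, at -0.80. Ccdc3, a secreted protein gene, Ctnnd2, a delta-catenin, and the transcription factor Meis1 completed the 5, with limma voom adjusted p of 0.278, 0.395 and 0.395. Ctnnd2 was at 7.72 and 49.6 CPM untreated and 46.6 and 41.4 CPM with losartan in the selected nuclei. In thick ascending limb nuclei it was at 82.1 and 149.95 CPM untreated and 24.0 and 21.8 CPM with losartan, the lower pair. Meis1 drew 75.1% of its UMIs in selected nuclei from sub-clusters 5, 7 and 8.

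Against 12249 proximal tubule nuclei, chosen by at least 5 UMIs of the 4 proximal genes, edgeR called 72 of 15501 genes (0.464%), 38 (0.245%) with a larger and 34 (0.219%) with a smaller ratio in the selected nuclei. In that fit the estimated prior degrees of freedom were infinite, against 2 residual ones, so a gene's own spread between libraries had no weight. The robust edgeR fit called 63 (0.406%). limma voom called 0, with 902 at an unadjusted p under 0.05, but when checked on simulated data it found none of the known changes in this comparison, so its count does not bear on the edgeR calls. On such data without any change the robust fit made more calls than the main one. With 200 genes changed by 2 on the log2 scale, the main edgeR fit made 128 calls, of which 104 were changed genes. False calls were thus more frequent there than the adjusted p of 0.05 states.

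The 10 genes with the smallest p were Tshr, Megf11, Kirrel3, Anks1b, Pcdh7, Jazf1, Kcnip4, Myof, Btg2 and Atp10b. Pcdh7, a protocadherin with widely spread untreated values, was at 69.5 and 598 CPM in the untreated and 786 and 606 CPM in the losartan libraries, and at 128, 110, 64.4 and 82.2 CPM in proximal tubule nuclei. Its edgeR adjusted p was 1.47e-07, and 1 in the robust fit. Kirrel3 was at 28.3 and 294 CPM untreated and 527 and 280 CPM with losartan (edgeR adjusted p = 4.28e-09, robust 1). Tshr was at 224, 23.2, 323 and 129 CPM in selected nuclei and 59.7, 18.2, 8.30 and 11.7 CPM in proximal tubule nuclei. In the selected nuclei 78.3% of Tshr UMIs came from sub-cluster 3. Sub-cluster 2 gave 45.7% of Kirrel3 UMIs and sub-cluster 6 gave 59.8% of Atp10b UMIs. Untreated library 1 had no nucleus in sub-clusters 2 and 6, and the part of this mix was not tested. Jazf1, a zinc finger gene, was at 216, 171, 237 and 166 CPM in selected nuclei and 24.4, 26.3, 4.70 and 8.498 CPM in proximal tubule nuclei, where the 2 groups did not overlap. Myof, a membrane repair protein, was likewise at 245, 364, 355 and 338 CPM in selected nuclei and 71.5, 103, 21.4 and 34.3 CPM in proximal tubule nuclei. For both genes the selected libraries overlapped, and in proximal tubule nuclei both losartan values were the lower.

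Kap, Spp1 and Gm43291 had the same order of groups in all 4 classes. Kap was at 901 and 538 CPM untreated and 2446 and 2319 CPM with losartan in thick ascending limb nuclei, at 1362 and 1436 against 2762 and 2626 CPM in proximal tubule nuclei, and at 598 and 582 against 2239 and 2031 CPM in 1709 principal cell nuclei. Spp1 was at 473 and 755 against 199 and 231 CPM, at 331 and 433 against 133 and 140 CPM, and at 320 and 736 against 207 and 207 CPM in the same classes. The differences between the selected and thick ascending limb nuclei were -0.10 for Kap, -0.55 for Spp1 and -0.82 for Gm43291 on the log2 scale, and none passed in edgeR (adjusted p of 1, 1 and 0.98). All 4 classes come from the same 4 libraries.

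**Figure D5:**
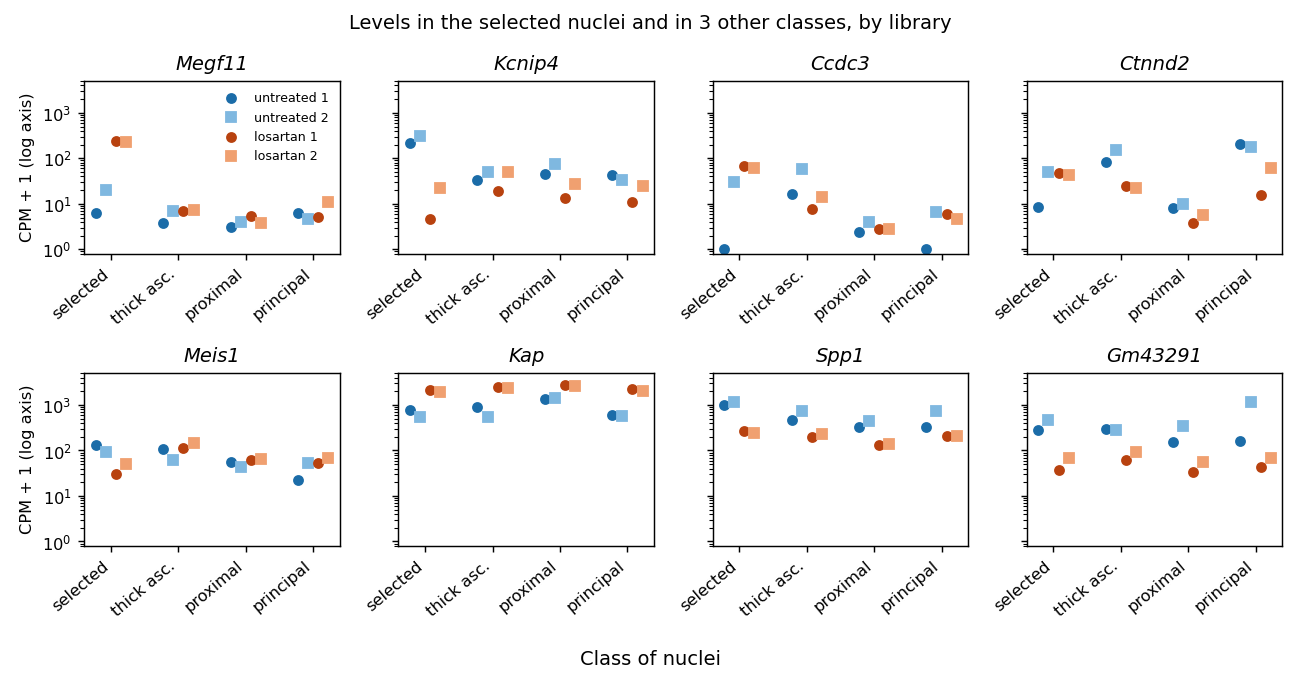
Level of 8 genes as unscaled CPM plus 1 on a log axis in the selected nuclei and in thick ascending limb, proximal tubule and principal cell nuclei, 1 point per library. Megf11 reaches 223 to 240 CPM in the losartan libraries of the selected nuclei, while Kap is higher and Spp1 lower in both losartan libraries of all 4 classes.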

How the data were processed

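The deposited matrices hold raw counts of UMIs per gene and barcode, written by the authors with Cell Ranger 5.0.0 per the file headers. The submitters' processing notes name mm10 and Bowtie 0.12.2 without a role; the strand of counting is not stated, so genes that overlap another on the opposite strand, among them Kcnip4, Ccdc3, Ctnnd2 and Meis1, are uncertain. Of 27998 listed genes, 27645 were placed on GENCODE M21 by identifier. Promoters come from RefSeq. Selected nuclei were normalised to 10000 UMIs and clustered with scanpy 1.11.5 (1500 variable genes, 20 components, 15 neighbours, Leiden 0.5), without integration, and doublets were scored with Scrublet and kept. Raw counts were summed per library and class and tested with the quasi-likelihood test of edgeR 4.0.16 (TMM, filterByExpr, Benjamini-Hochberg), with DESeq2 1.42.0 and limma 3.58.1 voom as alternatives. Named genes were the 10 of lowest p in each direction, the rule genes, the 15 leading genes, and list genes with unadjusted p under 0.05 or the 3 highest levels. Genes shown against other classes were the calls, or the 10 of lowest p. Members and lists were chosen with earlier results of these data known. The tests were checked on simulated data. Some genes and a motif are not reported here.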

Additional observations from a re-analysis of the deposited data

Results flagged for a closer look

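The losartan difference in the selected nuclei departed from that in thick ascending limb nuclei, by edgeR's test of the difference itself, for Kcnip4 (-4.10 on the log2 scale), Megf11 (3.74), Ccdc3 (3.92), Ctnnd2 (2.92) and Meis1 (-2.13). None of the 5 passed with limma voom. For Ccdc3 the selected nuclei had 0 UMIs in untreated library 1 and 29.1 CPM in untreated library 2, and 84.3% of its UMIs came from sub-cluster 6.

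Against proximal tubule nuclei the same test picked out Tshr (3.18), Megf11 (3.65), Kirrel3 (2.35), Anks1b (-3.75), Pcdh7 (2.11), Jazf1 (2.03), Kcnip4 (-2.75), Myof (1.86), Btg2 (1.96) and Atp10b (2.02). Kirrel3 and Pcdh7 did not pass in the robust edgeR fit. Anks1b was at 22.8 and 14.1 CPM untreated and 85.3 and 53.3 CPM with losartan in proximal tubule nuclei, and had 2 and 4 UMIs in the selected nuclei of the losartan libraries.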

How the results depend on the processing

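In the selected nuclei edgeR called 0 genes, and 6 with DESeq2, 100 with no filter on low counts, 6 with only sub-clusters 3 and 4, and 0 to 93 when a library was left out. The replicate numbers pair the libraries only by name (the correlation of same-numbered deviations was 0.192), and with the replicate block 7 genes were called. Against thick ascending limb nuclei the 5 calls became 71 with no filter, 15 with at least 4 of the 8 genes, 8 without doublets, 3 with only sub-clusters 1 to 4 and 6, 0 with voom, 10 with the robust fit and 5 to 185 without 1 library. Against proximal tubule nuclei the 72 became 13 with at least 4 of the 8 genes, 38 with only sub-clusters 1 to 4 and 6, 0 with voom (which found no known change there) and 20 to 119 without 1 library. Pde1c reversed to -0.16 with only sub-clusters 1 to 4 and 6, -0.81 with 1, 3 and 4 and -0.89 with 3 and 4, and Kcnip4 against proximal tubule nuclei to 0.60 with only sub-clusters 1 to 4 and 6; these fits hold fewer nuclei. Of the 15 leading genes 9 remained with at least 4 of the 8 genes and 9 to 14 when a library was left out. Leiden resolution 1 gave 13 sub-clusters in place of 8 (adjusted Rand index 0.734). Where not given, the cause was not tested. The summed UMIs of selected nuclei were fewest in losartan library 1, at 278729 from 72 nuclei, where 3 UMIs equal 10.8 CPM.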
